A study of Homo sapiens with 5 samples.

Results

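Tissue factor, the plasminogen activators and their inhibitors, and the thrombospondins were followed in IMR32, an established human neuroblastoma cell line, while a short hairpin RNA against the homeobox gene MEIS1 was induced. All probe sets annotated to F3, TFPI, TFPI2, PLAT, PLAU, PLAUR, SERPINE2, THBS1 and THBS2 were taken, which gave 24 of the 54675 probe sets on the Affymetrix U133 Plus 2.0 array, for 9 of the 19775 named genes. The genes were chosen by their signals over these same 5 arrays, which were known beforehand, so their levels and changes are given as a description, without a test. Every array held total RNA of IMR32 cells with a stably integrated, doxycycline-inducible hairpin described as specific for MEIS1b: 1 array from cells without doxycycline (0 h) and 1 array each after 24, 48, 96 and 192 h of doxycycline. The uninduced cells carried the hairpin too. Whether the line is 1 clone is not given in the sources used here. No array of cells kept without doxycycline until a later time is among the 5, so time in culture, doxycycline and the hairpin cannot be told apart.

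Tissue factor is the membrane receptor that starts blood clotting by binding factor VIIa, and the Kunitz-type inhibitor TFPI shuts that complex off. On the other side of the system, the activators tPA (from PLAT) and uPA (from PLAU, held at the cell surface by its receptor PLAUR) turn plasminogen into plasmin, which dissolves fibrin and pericellular matrix. Serpins such as protease nexin-1 (SERPINE2) block the activators and thrombin. In the nervous system these proteases are known from neurite outgrowth, cell migration and synaptic remodelling, and in tumours tissue factor is known for signalling through protease-activated receptors.

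The arrays had been scaled as a whole, with a trimmed mean signal of 100.02 to 100.03, and their median signal lay between 16.0 and 19.0. The 3' to 5' signal ratio was 1.02 to 1.08 for GAPDH and 1.25 to 1.43 for ACTB. MEIS1 read 786.6 at 192 h, against 1052 at 0 h, in its brighter probe set. Of 9 adrenergic neuroblastoma markers with a probe set of their own, 8 had a mean signal above the minimum used here, among them MYCN, GATA3, ISL1 and PHOX2A; TH was dim, at 2.1 to 28.5. Of 7 endothelial markers only CDH5 was above it, at 12.3 to 36.6, while the other 6 read 1.0 to 27.5. None of 5 macrophage and blood markers was above it, nor were the platelet chemokines PF4 (1.9 to 12.3) and PPBP (1.0 to 4.3), while ITGA2B and GP1BA of the 5 platelet markers were. Of 3 Schwann cell markers, ERBB3 was above it. With 1 array per time point, no difference between arrays has a replicate check.

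Only 5 of the 24 member probe sets, from 4 of the 9 genes, averaged 17.9 or more over the 5 arrays, the median signal of the whole data set: those of F3, PLAT and SERPINE2 and a pair for PLAUR. The PLAT probe set lay nearest above this minimum with a mean of 40.26, and another PLAUR probe set nearest below it with 14.0. The tissue factor message was therefore measured while both of its Kunitz inhibitors were dim, and the uPA receptor while uPA itself was dim. Changes below are on the log2(signal + 4.7) scale, where 4.7 is the 25th percentile of the signals on the median array, and they understate the change of dim genes.

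**Figure D1:**
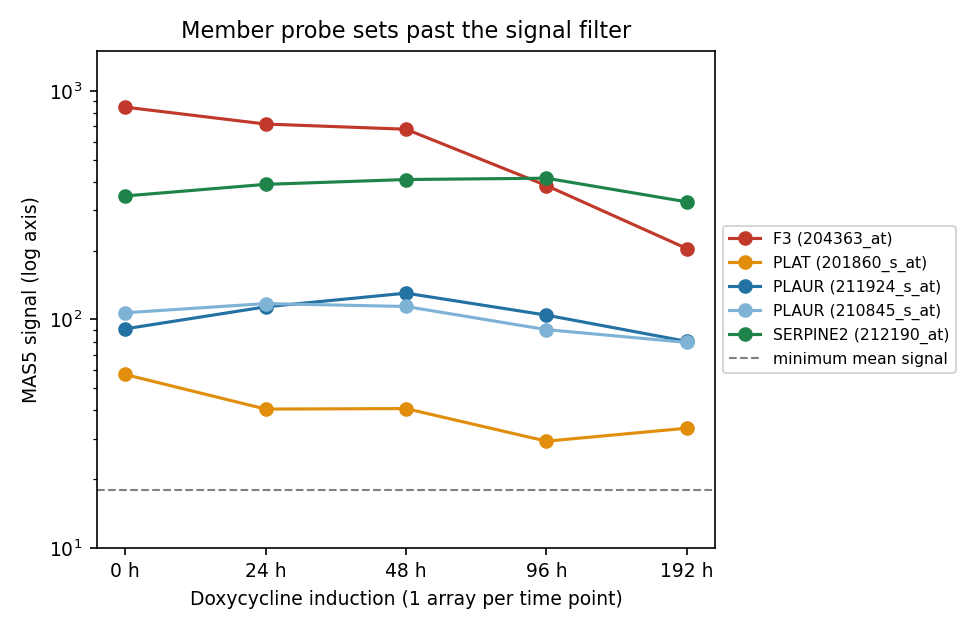
MAS5 signal (log axis) of the 5 member probe sets past the signal filter on the 5 arrays, drawn at equal steps of induction time with 1 point per array; the dashed line is the minimum mean signal of 17.9. F3 runs down to 204.2 at 192 h, against 849.8 at 0 h, while SERPINE2 stays between 326.9 and 415.1.

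F3, tissue factor, had the largest difference over the course among the fitted members. Its probe set, 204363_at, read 849.8, 716.5, 680.0, 385.3 and 204.2 at 0, 24, 48, 96 and 192 h. Each array was lower than the one before it, a pattern that 2.18% of the 11944 tested genes shared. Little of the change came early: the signal was 84.3% of its 0 h value at 24 h and 80.0% at 48 h, then 45.3% at 96 h and 24.0% at 192 h. The log2 step between successive arrays was -0.24 and -0.07 up to 48 h, and -0.81 and -0.90 after it. The intervals after 48 h were longer than those before it, so these steps are not rates per hour. At 24 h, 18.3% of tested genes had a ratio to 0 h as low as that of F3, and at 48 h 12.5% did. At 96 h the share was 0.77%, and at 192 h it was 0.1% (12 genes, F3 included). The fitted log2 change of F3 over the 4 steps was -1.98. Leaving out the 192 h array gave -1.39, and leaving out the 0 h array gave -2.47. With the level of the poly-A spike-ins as a covariate, which read 0.61 lower at 96 h than at 0 h on the log2 scale, it was -2.40. In these bulk samples, fewer cells of a kind and less RNA per cell cannot be told apart.

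The bases before the start of F3 are shown because they hold the motifs of several factors measured on the same arrays. The first stretch is F3 at chr1:94541760-94542009 and the second is PLAUR at chr19:43670170-43670419, both on the minus strand of GRCh38.p14 (RefSeq), 250 bases 5′ to 3′ that end just before the annotated start. Capitals mark every match on either strand to the searched motifs. These were TGACAG for the MEIS factors, GGGCGG for the zinc finger factor SP1, GCGTGGG for the zinc finger factor EGR1, GGAATG for the TEAD partners of YAP1, TGANTCA for the JUN and FOS dimer AP-1, and TATAAA for the TATA box. The letters for SP1 and for EGR1 can overlap each other.
F3: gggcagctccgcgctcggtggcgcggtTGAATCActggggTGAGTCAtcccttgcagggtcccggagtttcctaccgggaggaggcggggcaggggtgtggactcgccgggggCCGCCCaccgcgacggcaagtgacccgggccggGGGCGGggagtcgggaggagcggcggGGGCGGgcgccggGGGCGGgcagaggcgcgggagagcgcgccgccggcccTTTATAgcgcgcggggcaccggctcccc
PLAUR: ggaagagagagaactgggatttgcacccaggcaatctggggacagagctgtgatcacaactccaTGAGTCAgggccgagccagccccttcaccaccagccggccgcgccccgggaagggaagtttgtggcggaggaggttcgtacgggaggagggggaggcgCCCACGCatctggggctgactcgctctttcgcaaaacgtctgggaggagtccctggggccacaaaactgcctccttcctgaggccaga
The F3 stretch holds 2 AP-1 matches, at -223 to -217 and -210 to -204 from the start, 4 SP1 matches, and a TATA box match on the other strand at -28 to -23. The PLAUR stretch holds 1 AP-1 match at -186 to -180 and 1 EGR1 match at -88 to -82, with no TATA box match. Among all 35116 promoters of 300 bases in the same table, 7.71% hold TGANTCA, 45.0% GGGCGG, 6.98% GCGTGGG, 14.0% GGAATG and 11.5% TATAAA. Neither stretch holds TGACAG, the core of the MEIS motif, which 15.8% of all promoters hold. A match is a description of the letters and says nothing on whether a factor binds there.

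PLAT, which encodes tissue plasminogen activator, was lower than at 0 h on all 4 induced arrays. Its probe set, 201860_s_at, read 57.4, 40.5, 40.7, 29.3 and 33.4 at 0, 24, 48, 96 and 192 h. The signal stood at 70.6% of its 0 h value at 24 h and at 70.9% at 48 h. The lowest array was 96 h, at 51.0%, and 192 h was at 58.2%. The fitted log2 change was -0.73, and it lay between -1.04 and -0.46 when each array was left out in turn. With an offset 4 times larger it was -0.56, so the size of the PLAT change depends on the offset. Being lower on all 4 induced arrays was also true of F3, so of 2 of the 4 fitted members, and of 20.2% of all tested genes.

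PLAUR, the urokinase receptor, was higher than at 0 h on the early induced arrays and lower at 192 h. Its probe set 211924_s_at read 90.9, 113.5, 130.3, 104.4 and 80.1 at 0, 24, 48, 96 and 192 h, with the highest signal at 48 h. Probe set 210845_s_at read 106.9, 117.3, 113.9, 90.2 and 79.3, with the highest signal at 24 h. Both PLAUR probe sets were thus above their 0 h signal at 24 and 48 h and below it at 192 h, at 88.1% and 74.2% of it, but they disagreed at 96 h (115% and 84.4%). The fitted changes were -0.18 and -0.47, and the first was 0.31 without the 192 h array, so no direction over the course is given. The remaining probe set, 214866_at, was dim, at 3.8 to 20.7.

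SERPINE2, the serpin protease nexin-1, which inhibits thrombin and both plasminogen activators and is known as a product of glial cells, stayed close to its starting signal. Probe set 212190_at read 347.1, 390.1, 409.6, 415.1 and 326.9 at 0, 24, 48, 96 and 192 h. Relative to 0 h, the first 3 induced arrays stood at 112%, 118% and 120%, and the last at 94.2%. Its log2 range over the 5 arrays was 0.34, against a median of 0.501 over the 26805 probe sets at or above the minimum. The fitted change of SERPINE2 was -0.03, and 0.33 without the 192 h array. The other SERPINE2 probe set was dim, at 2.8 to 14.8.

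From 96 h to 192 h, F3, both PLAUR probe sets and SERPINE2 read lower at the later time, and PLAT read higher. The median signal of the whole array was 19.0 at 96 h and 18.0 at 192 h. How many of all tested genes also read lower was not counted, so no joint change of the members is read from this. The log2 step was -0.90 for F3, -0.36 and -0.18 for PLAUR and -0.34 for SERPINE2, and 0.16 for PLAT.

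Of the 4 member genes that could be fitted, F3 was the only one at least 2-fold lower at 192 h than at 0 h, beside 1.93% of all 11944 tested genes. Because these values guided the choice of the genes, nothing is read from this count, and no test result is given for the members.

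The other 19 member probe sets were dim, with a mean signal over the 5 arrays under the minimum of 17.9. Their signals ran from 1.0, the floor of the deposited values, to 20.7, with 80 of the 95 values under 10 and 21 at the floor. The inhibitor genes come first. TFPI has 5 probe sets, and 9 of their 25 values lay at the floor, with 14.3 the highest. Probe set 210665_at was at the floor on all 5 arrays. The TFPI probe set with the highest 24 h signal, 209676_at, read 1.3 at 0 h and 10.0, 7.4, 9.2 and 7.5 later, which puts all 4 induced arrays above 0 h, but the other 4 probe sets did not share this. TFPI2, a matrix-bound Kunitz inhibitor related to TFPI, read between 1.0 and 10.6, with 5 of 10 values at the floor.

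PLAU, urokinase, was dim in both probe sets, and they did not move alike. Probe set 211668_s_at read 11.9, 1.0, 1.2, 16.5 and 3.1 at 0, 24, 48, 96 and 192 h, and 205479_s_at read 3.8, 10.7, 3.6, 8.2 and 7.1. At 24 h the first was at the floor while the second was at its highest. The log2 range of 211668_s_at was 1.90, above the 90th percentile of 1.73 over the 27808 probe sets under the minimum signal; it was the 1 of the 19 dim member probe sets of which this was true.

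THBS1, the matricellular glycoprotein thrombospondin-1, which activates latent TGF-beta, was dim in all 7 of its probe sets, with values from 1.0 to 15.1 and 6 of 35 at the floor. THBS2, its close relative, read 12.9, 1.6, 1.5, 10.7 and 1.1 in its 1 probe set. The 0 h and 96 h arrays were high for THBS2 and the other 3 low, so its signal did not follow the time of induction. The median log2 range of the 19 dim member probe sets was 0.948, beside 1.08 for all probe sets under the minimum. Low MAS5 signals are noisy, because a background taken from mismatch probes is subtracted, and a dim signal does not show that a transcript is absent.

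**Figure D2:**
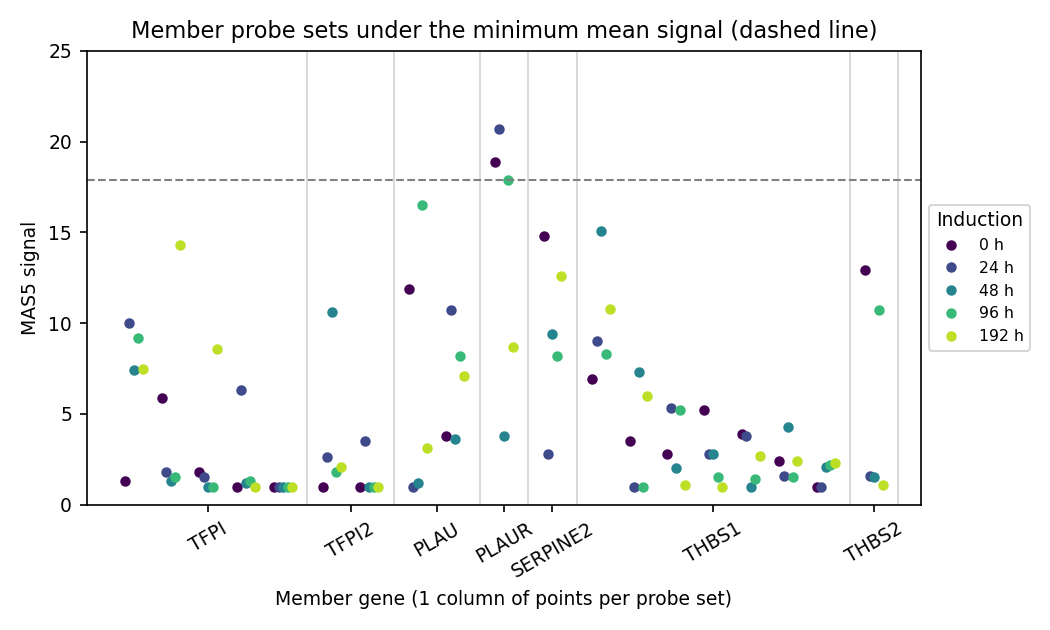
MAS5 signal of the 19 member probe sets under the minimum mean signal (dashed line, 17.9), with 1 column of 5 points per probe set and a colour for each induction time. Of the 95 points 80 lie under 10, and the order of the colours differs from 1 probe set to the next within TFPI, PLAU and THBS1.

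TGACAG, the core of the MEIS motif, was present in 3 of the 10 member promoters that the table holds, beside 15.8% of all promoters. These 3 were those of TFPI2, THBS2 and 1 of 2 starts of PLAU, whose probe sets were all dim. TFPI and THBS1 were dim too without holding it, and 50.9% of all probe sets were under the minimum, so nothing is read from this. The stretches of TFPI2 (chr7:93890824-93890883) and THBS2 (chr6:169253870-169253929), 60 bases each on the minus strand of GRCh38.p14, are shown because the hairpin targets MEIS1. Capitals mark TGACAG, at -103 to -98 in TFPI2 and -56 to -51 in THBS2.
TFPI2: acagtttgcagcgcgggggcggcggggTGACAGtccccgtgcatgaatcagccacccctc
THBS2: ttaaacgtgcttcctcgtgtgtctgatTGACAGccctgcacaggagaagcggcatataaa
The 10 promoters belong to 8 member genes, and PLAT has none among them. AP-1 matches were found for F3, PLAUR and TFPI2, and 7.71% of all promoters hold one.

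The genes whose course was most like that of F3 were sought among all tested genes, by the mean absolute difference in log2 ratio to 0 h over the 4 induced arrays. KDELR3, a receptor that returns proteins to the endoplasmic reticulum, differed by 0.0854, HMCN1, an extracellular matrix protein, by 0.095 and APCDD1, a membrane inhibitor of WNT signalling, by 0.128. KDELR3 read 119.0, 108.9, 95.5, 56.2 and 27.6 at 0, 24, 48, 96 and 192 h. At 192 h the log2 ratio was -1.94 for KDELR3, -2.07 for HMCN1 and -1.82 for APCDD1, against -2.03 for F3. MEIS1 itself, in its brighter probe set, had log2 ratios of -0.30, -0.31, -0.29 and -0.42 at 24, 48, 96 and 192 h. Its other probe set above the minimum had -0.27, -0.09, -0.28 and -0.42, so the 2 probe sets differed most at 48 h.

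**Figure D3:**
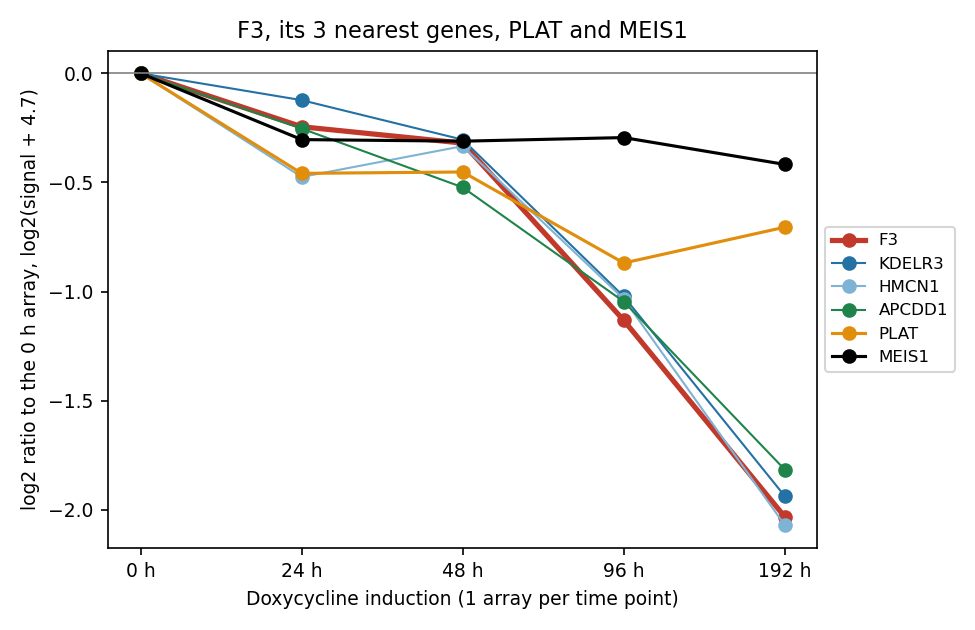
log2 ratio to the 0 h array on the log2(signal + 4.7) scale for F3, the 3 genes with the nearest course, PLAT and MEIS1, at equal steps of induction time with 1 point per array. F3 and its 3 neighbours lie together and reach about -2 at 192 h, whereas PLAT ends at -0.70 and MEIS1 at -0.42.

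Fibroblast markers were read because tissue factor is abundant in fibroblasts. The summed signal of the 6 markers was 553.1, 474.9, 407.0, 243.2 and 202.2 at 0, 24, 48, 96 and 192 h, so it moved with F3. Most of that sum was PDGFRA, a growth factor receptor also known from neural crest derived cells, at 457.3, 359.7, 297.2, 164.5 and 131.6. Without PDGFRA the sum of the other 5 was 95.8, 115.2, 109.8, 78.7 and 70.6. By their brightest probe set, 3 of the 6 had a mean signal above the minimum, PDGFRA, PDGFRB and COL3A1, and of these PDGFRA fell (fitted log2 change -1.85 ± 0.18 SE, limma adjusted p = 0.00028). PDGFRB, a receptor of mural cells and fibroblasts, read 54.5, 52.8, 58.5, 37.6 and 40.0, with a fitted log2 change of -0.50 (limma adjusted p = 0.456). COL3A1, a fibrillar collagen chain, read 12.4, 33.3, 20.6, 14.5 and 11.1, with a fitted log2 change of -0.49 (limma adjusted p = 0.743). LUM (4.7 to 12.7), DCN (8.4 to 19.0) and FAP (1.3 to 7.0) had mean signals under the minimum. The part of fibroblast-like cells in the F3 signal was not tested.

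The rest of the clotting and plasminogen system was read from 77 other genes in 6 lists, written with earlier results of these data known. Of these, 72 had a probe set named for them alone and 37 had one above the minimum signal. The trend across the 5 arrays was tested for these 37 within the fit of all 11944 genes. The threshold was an adjusted p of 0.05 for the slope against the time step in limma, which 3.47% of all tested genes passed. Of them 1 rose, the thrombospondin family member THBS3, and 2 fell, YAP1 and NFKB1. Both that fell came from the list of transcription factors and cofactors, which holds YAP1 because of an earlier result. In all 11944 genes 2.02% rose and 1.46% fell. The median fitted log2 change of the 37 was -0.0001, beside 0.003 for all tested genes. An unadjusted p under 0.05 in limma was found for 13 of the 37, a larger share than the 2028 of all 11944 genes. The lists were written with earlier results known, so nothing is read from this difference or from the counts per list below.

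Among clotting factors and the proteins that process them, 8 of 21 genes were tested and 0 passed in limma, with 3 at an unadjusted p under 0.05. F7, the plasma partner of tissue factor, read 31.4, 20.1, 22.3, 40.2 and 39.3 at 0, 24, 48, 96 and 192 h, with a fitted log2 change of 0.57 and an SE of 0.43 (adjusted p = 0.562 in limma). F12, the contact-phase factor XII, read 102.6, 104.0 and 100.6 up to 48 h and 154.8 and 169.4 later (0.78 ± 0.23 SE, limma adjusted p = 0.0889). LMAN1 and MCFD2, which together carry factors V and VIII out of the endoplasmic reticulum, had fitted changes of -0.32 (limma adjusted p = 0.249) and -0.11 (0.84). Some zymogens and fibrinogen chains made in liver were dim: F2, F9, F10, F11, FGA, FGB and FGG had mean signals between 2.2 and 12.62. This set was chosen after its values were seen and leaves out F7 and F12, whose mean signals were 30.66 and 126.3.

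None of the tested receptors and anticoagulants that act beside tissue factor passed. F2R, the thrombin receptor PAR1, read 383.5, 367.2, 327.8, 350.1 and 410.6 (fitted log2 change 0.05 ± 0.16, limma adjusted p = 0.928), and its 2 probe sets above the minimum signal disagreed in sign. PROCR, the endothelial protein C receptor, lay between 15.1 and 29.4 (-0.32 ± 0.45, limma adjusted p = 0.794). F2RL2, F2RL3 and the thrombin receptor thrombomodulin, THBD, were dim. Of the anticoagulant list, 2 of 8 genes were tested and 0 passed, with 1 at an unadjusted p under 0.05. ANXA5, which covers the phosphatidylserine that clotting complexes need, read 646.9, 699.0, 541.3, 528.4 and 498.1 (-0.46 ± 0.15, limma adjusted p = 0.12). PROS1, the cofactor protein S, had a fitted change of -0.27 (limma adjusted p = 0.661).

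Plasminogen itself, PLG, was dim in all 3 probe sets, and the brightest read 1.2 to 10.5. Of 19 genes for plasminogen, its inhibitors and its cell-surface receptors 7 were tested and 0 passed in limma, with 2 at an unadjusted p under 0.05. ANXA2, which assembles tPA and plasminogen at the cell surface, read 1366.6, 1621.3, 1524.9, 1390.3 and 815.2 at 0, 24, 48, 96 and 192 h. Its 192 h array alone was clearly lower, and the fitted log2 change was -0.68 with an SE of 0.24 (adjusted p = 0.165 in limma). The change was negative in all 3 probe sets above the minimum signal. S100A10, the partner of ANXA2 in that complex, was dim at 2.5 to 13.1. PLGRKT, a transmembrane plasminogen receptor, read 223.1, 213.1 and 223.1 up to 48 h and 168.8 and 172.7 later (-0.42 ± 0.18, limma adjusted p = 0.255), and ENO1, an enolase that also binds plasminogen, had -0.19 (0.539). SERPINI1, neuroserpin, the inhibitor of tPA in neurons, stayed just under the minimum at 14.6 to 17.8. SERPINE3, SERPINB2, VTN and F2RL1 were not analysed here.

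In the thrombospondin family THBS3, a pentameric member, rose. Its probe set read 390.1, 349.9 and 443.6 at 0, 24 and 48 h and 730.8 and 609.1 at 96 and 192 h, so that the fitted log2 change was 0.93 with an SE of 0.22 (adjusted p = 0.0398 in limma). The 96 and 192 h arrays stood above the other 3, while 24 h lay below 0 h. This call is close to the threshold: with the spike-in covariate the change of THBS3 was 0.59 (limma adjusted p = 0.288), and the call was lost without the 0, 24, 96 or 192 h array (adjusted p of 0.0513 to 0.0818). Over all 14 alternatives the adjusted p of THBS3 ran from 0.0302 to 0.288. THBS4 had a fitted change of -0.17 (limma adjusted p = 0.899), and COMP was dim. CD47, the thrombospondin receptor that also signals to macrophages, read 614.2, 673.6, 579.3, 867.7 and 837.1 (0.50 ± 0.18, limma adjusted p = 0.162), with a positive change in all 6 probe sets above the minimum signal. CD36, another receptor of thrombospondin-1, was dim. The integrin subunit ITGB1 had -0.31 (limma adjusted p = 0.275). In all, 8 of the 10 genes of this list were tested, 1 rose and 0 fell, with 4 at an unadjusted p under 0.05.

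Of 13 transcription factors and cofactors listed for the F3 or SERPINE promoters in other cells, 10 were tested, 0 rose and 2 fell. YAP1, the Hippo pathway effector, read 240.2, 250.3, 158.9, 94.1 and 72.5 at 0, 24, 48, 96 and 192 h (fitted log2 change -1.88 ± 0.24, limma adjusted p = 0.00176), negative in all 3 probe sets, with an adjusted p of 0.000112 to 0.067 over the alternatives. These signals are those of the brightest probe set. At 24 h its log2 ratio to 0 h was 0.06, and those of the other YAP1 probe sets were -0.13 and 0.31, against -0.24 for F3. At 48 h the ratios were -0.58, -0.40 and -0.44 in the 3 probe sets, against -0.32 for F3, and these differences between single arrays were not tested. NFKB1, an NF-kappa-B subunit, read 153.0, 148.6, 124.0, 108.5 and 88.0, lower at each array (-0.79 ± 0.20, limma adjusted p = 0.0498). The NFKB1 call was lost when any 1 array was left out (adjusted p of 0.065 to 0.229) and with the spike-in covariate (0.155). Over all 14 alternatives its adjusted p ran from 0.0315 to 0.229.

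JUN, a subunit of AP-1, read 365.6, 413.5, 358.6 and 449.1 up to 96 h and 1147.3 at 192 h (fitted log2 change 1.36 ± 0.35, limma adjusted p = 0.0552). The highest JUN signal was thus on the array where F3 was lowest. EGR1, chosen after its values were seen, was above its 0 h signal of 28.7 on every induced array, at 81.9 to 174.2 (1.17 ± 0.65, limma adjusted p = 0.399). SP1 (-0.16), RELA (0.05), TEAD1 (-0.08) and HIF1A (0.09) had small fitted changes without passing, and FOS, FOSL1 and WWTR1 were dim.

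**Figure D4:**
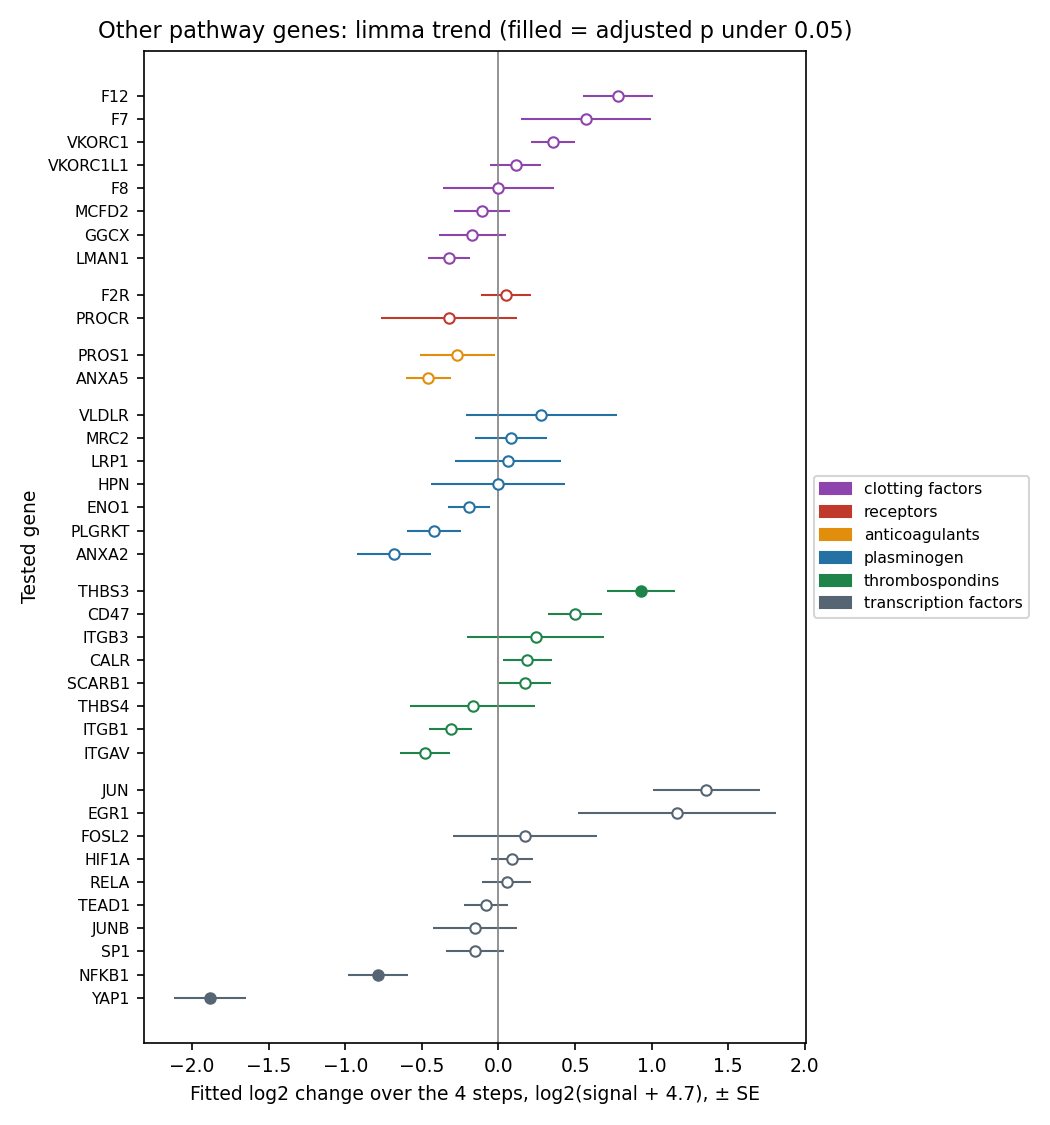
Fitted log2 change over the 4 steps ± SE (horizontal bars) of the 37 other tested genes, coloured by list. Of these, 10 are transcription factors and cofactors, NFKB1 and YAP1 among them. The others belong to the clotting, plasminogen and thrombospondin systems. Filled points have a limma adjusted p under 0.05. THBS3 at 0.93, NFKB1 at -0.79 and YAP1 at -1.88 are the 3 filled points.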

How the data were processed

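Total RNA of 5 samples was hybridised to Affymetrix U133 Plus 2.0 arrays. MAS5 and GCOS are the tools listed in the submitters' processing notes, with no version. The deposited log2 values ran upward from 0 and were taken to be log2 MAS5 signals; no source used here states the log step, the floor or the scaling target, which were inferred from the values. Signals were returned to the linear scale and not rescaled, since trimmed means were equal. GEO's platform annotation named 1 gene for 41091 probe sets, of which 41037 were found in the RefSeq table of GRCh38.p14. Each gene was represented by its brightest probe set, provided that its mean signal was 17.9 or more, which left 11944 genes; 62 control probe sets were left out. limma 3.58.1 (R 4.3.3) fitted log2(signal + 4.7) on the time step (0 to 4) with eBayes(trend=TRUE). Tests were two-sided, adjusted by Benjamini-Hochberg across the 11944 genes, and judged at 0.05; the slope times 4 is called the fitted change. With 5 single arrays and 3 residual degrees of freedom, any bend in a course counts as noise, and the number of arrays limits the precision. The fit was run on simulated straight-line changes with independent noise, which cannot check bent courses or shifts shared by a whole array.

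Members, gene lists and motifs were chosen with earlier results of these data known. Named among the other pathway genes were those past the threshold and, in each list, the 2 with the highest mean signal and the 2 with the largest fitted change; others were named after their values were seen. Alternatives were another offset, scaling, signal filter, time scale, spike-in covariate and summary of probe sets, and leaving out each array.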

Additional observations from a re-analysis of the deposited data

How the results depend on the processing

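The count of 415 genes past the limma threshold was 21 with no signal filter and 230 with the spike-in covariate, and 190 to 416 when each array was left out. Leaving out 0 h gave 190 genes, leaving out 96 h gave 254 and leaving out 192 h gave 240. With array medians set equal, 196 genes rose and 233 fell (45.7% rose), beside 241 and 174 here. Of the other pathway genes, 3 passed here, 0 with no signal filter (21 of 19775 genes passed then), and 1 to 3 when each array was left out, with 1 without the 24 h or the 192 h array. YAP1 passed under every alternative except no signal filter (adjusted p = 0.067). The fitted change of F3 was negative under all 14 alternatives, from -2.47 to -1.39, and that of PLAT from -1.04 to -0.46. PLAUR and SERPINE2 changed sign only without the 192 h array (0.31 and 0.33). No paired analysis was possible because each time point has 1 array and the labels give no replicate numbers. A dim signal, near the floor, limits what these arrays can show for TFPI, TFPI2, PLAU, THBS1 and THBS2.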
